A study of Mus musculus with 8 samples.

Results

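The Bcl2 family was described through 10 of its genes, chosen by symbol: the guardians Bcl2, Bcl2l1 and Mcl1, the effectors Bax and Bak1, and the BH3-only genes Bcl2l11, Bid, Bad, Bbc3 and Pmaip1. All 10 were found among the 13305 genes of the count table, and each had between 369 and 16263 counts in a mouse, so that none was lost to a filter on low counts.

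Bcl2 family proteins decide at the outer membrane of mitochondria whether a cell survives. The guardians hold the effectors Bax and Bak1 in check, and BH3-only proteins bind the guardians or the effectors when a cell is stressed or deprived of cytokines. Once released, the effectors open the membrane, cytochrome c escapes and caspases are switched on. In blood formation the members are used unevenly: Bcl-xL, the main product of Bcl2l1, keeps late erythroid cells and platelets alive, while stem cells and granulocytes rely on Mcl1.

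RNA of whole bone marrow (BM) from 8 C57BL/6N mice was sequenced, with 1 library per mouse. All of them carried Mx1-Cre, Flt3ITD/ITD (an internal tandem duplication in both copies of a receptor tyrosine kinase) and Dnmt3a+/-, a combination used as a model of acute myeloid leukemia (AML). The 3 AML WT mice were Gab2+/+, the 2 AML HET mice Gab2+/- and the 3 AML KO mice Gab2-/-, where Gab2 encodes a docking protein that passes on signals of Flt3. The series asks how the Gab2 dosage alters the BM of this model, and mice with wild-type Flt3 and Dnmt3a are not analysed here. The labels call all 3 groups AML, which is kept here as a name and does not give the share of blasts in a mouse. Mx1-Cre is driven by an interferon-inducible promoter and was active here without induction, the Gab2 knockout is present in every cell from birth, and the labels give neither age nor sex.

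Libraries held 28009258 to 39266815 counts. Levels of single mice are given as CPM, counts scaled to a common library size with TMM factors. Gab2 had 93.9, 68.5 and 61.6 CPM in the AML WT mice, 55.8 and 50.8 CPM in AML HET and 35, 47.2 and 40.2 CPM in AML KO, listed by replicate number as all values of single mice here, and its groups did not overlap. The paper describes a knockout allele in which a neomycin cassette takes the place of some Gab2 exons. Counts per gene do not show which exons the Gab2 reads in AML KO mice came from. Mature neutrophil and monocyte markers, which define myeloid BM, summed to at least 13660 and 5154 CPM in every mouse. Summed over 24 genes, erythroid markers ranged from 363 to 512 CPM in AML WT, from 792 to 2491 in AML HET and from 1714 to 5847 in AML KO mice. The 23 megakaryocyte and platelet markers ranged from 287 to 376, from 375 to 376 and from 635 to 794 CPM, respectively. In whole BM, fewer cells of a type and less RNA per cell cannot be told apart.

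Between AML KO and AML WT mice, 2 of the 10 members passed an adjusted p of 0.05 in the edgeR quasi-likelihood test (Benjamini-Hochberg over all genes), where 2.09% of all genes did (1.77% higher and 0.323% lower). Bcl2l1 rose 1.85-fold and Pmaip1, the gene for the BH3-only protein Noxa, fell to 0.510 of its AML WT level. Bcl2l1 and Pmaip1 were also the only members whose AML KO and AML WT mice did not overlap, at 2 of 10 against 22.1% of all genes. The median log2 fold change of the 10 members was 0.17, with 7 above and 3 below 0, beside a median of −0.02 over all genes. For the other 8 members the 95% intervals of the log2 fold change lay between −0.56 and 0.71, so that neither a doubling nor a halving fits inside them.

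**Figure D1:**
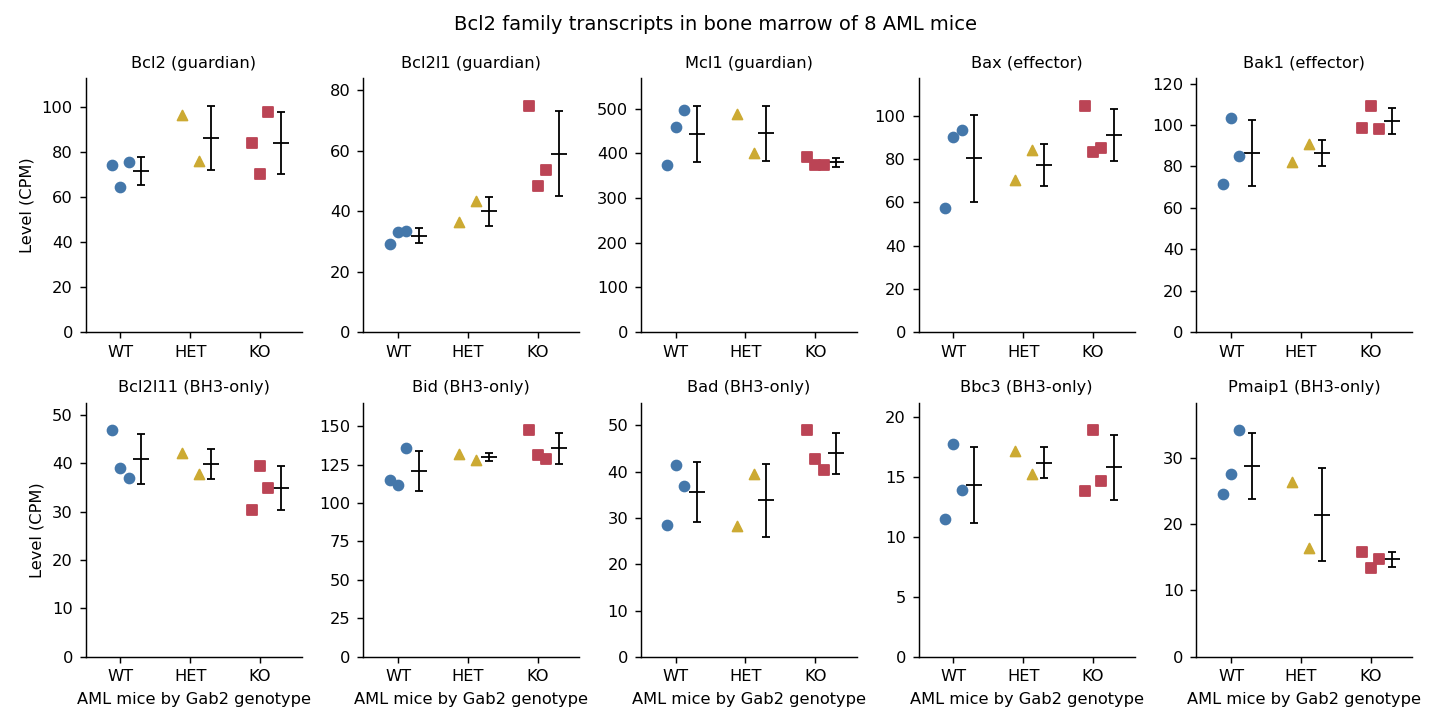
Level in CPM (y axis, starting at 0) of the 10 members in each mouse by Gab2 genotype (circles AML WT, triangles AML HET, squares AML KO), with mean and SD as black bars. The AML KO squares of Bcl2l1, 48.5 to 74.9 CPM, lie above all AML WT circles and those of Pmaip1, 13.4 to 15.8 CPM, lie below them, while AML WT and AML KO overlap in the other 8 panels.

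Bcl2l1 (ENSMUSG00000007659) lies on chromosome 2 from 152780668 to 152831728 of GRCm38, on the minus strand. RefSeq windows of 250 bases before to 50 bases after a transcript start were searched on both strands for GATA motifs (the words AGATAA and its variant AGATAG, and TGATAA and its variant TGATAG), since GATA1 is the master factor of erythroid cells and megakaryocytes, and for the STAT motif TTCNNNGAA, since Stat5 acts downstream of Flt3-ITD. Bcl2l1 has 3 such windows. They are shown for the outermost start and for an internal start, which is the only window of Bcl2l1 with a match. Capitals mark the GATA motifs.
Bcl2l1, outermost start, chr2:152831679-152831978, GRCm38.p6, minus strand: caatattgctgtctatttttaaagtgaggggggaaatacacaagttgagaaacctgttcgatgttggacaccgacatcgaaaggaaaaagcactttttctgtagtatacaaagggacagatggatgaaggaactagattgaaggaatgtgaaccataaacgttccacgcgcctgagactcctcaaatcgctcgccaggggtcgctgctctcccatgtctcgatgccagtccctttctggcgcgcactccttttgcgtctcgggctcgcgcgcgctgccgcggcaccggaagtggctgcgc
Bcl2l1, internal start, chr2:152828440-152828739, GRCm38.p6, minus strand: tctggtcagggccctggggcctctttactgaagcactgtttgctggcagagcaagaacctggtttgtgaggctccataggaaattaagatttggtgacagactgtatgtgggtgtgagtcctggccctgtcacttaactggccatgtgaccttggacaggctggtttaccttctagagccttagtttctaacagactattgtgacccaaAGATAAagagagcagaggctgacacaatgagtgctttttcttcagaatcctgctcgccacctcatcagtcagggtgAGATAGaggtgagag
Of its 2 matches, the first lies before and the other after the internal start. A GATA motif is found in 29.8% and a STAT motif in 8.3% of all 32851 windows of this length. Over 15 windows of 9 members (none was used for Pmaip1), 2 hold a GATA motif, those of Bcl2l1 and Bid, and 0 hold a STAT motif. Counts per gene do not show which start, or which of its splice forms, the reads of Bcl2l1 came from.

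Bcl2l1 was at 29.1, 33.0 and 33.5 CPM in the 3 AML WT, 36.6 and 43.3 CPM in the 2 AML HET and 74.9, 48.5 and 53.8 CPM in the 3 AML KO mice. The groups were ordered by Gab2 dosage without overlap, and AML KO replicate 1 stood highest. Means were 31.9 ± 2.39 (SD, n = 3), 39.9 ± 4.74 (SD, n = 2) and 59.1 ± 13.99 CPM (SD, n = 3). AML KO stood above AML WT by 0.89 ± 0.17 on the log2 scale (± standard error), with an adjusted p of 0.0341 in edgeR. Its sign and rough size were stable, at 0.68 to 1.01 in 8 fits without 1 mouse each, with 0.68 without AML KO replicate 1. The call was not: the adjusted p stayed under 0.05 only without AML KO replicate 2 (0.0231) and reached 0.123 without AML WT replicate 2.

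Mcl1, a short-lived guardian on chromosome 3, had by far the most counts of the family. Its level was 375, 458 and 498 CPM in AML WT, 489 and 402 in AML HET and 391, 374 and 375 CPM in AML KO mice. The AML KO mice were close to each other and lay at the lower end of the AML WT range. The log2 fold change of −0.22 (95% interval −0.53 to 0.09, adjusted p = 0.390, edgeR) did not pass. Bcl2, the founding guardian on chromosome 1, was at 74.3, 64.4 and 75.9 CPM in AML WT, 96.6 and 76.3 in AML HET and 84.2, 70.1 and 98.0 CPM in AML KO mice. AML KO and AML WT mice overlapped, with a log2 fold change of 0.23 (95% interval −0.12 to 0.58, adjusted p = 0.419, edgeR).

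The makeup of the guardians was compared per length, as CPM per kilobase of annotated exon. Bcl2l1 supplied 5.12%, 4.86% and 4.53% of the guardian transcripts in AML WT, 4.94% and 6.98% in AML HET and 11.7%, 8.28% and 8.87% in AML KO mice. Mcl1 remained the largest part in all 8 mice, at 88.3% to 90.4% in AML WT and 81.8% to 85.7% in AML KO. On this scale the level of Mcl1 was 17.3 to 19.9 times that of Bcl2l1 in AML WT, 12.4 and 17.9 times in AML HET and 7.01 to 10.4 times in AML KO mice. These shares depend on the exon lengths used, which count all annotated isoforms, and were not tested.

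**Figure D2:**
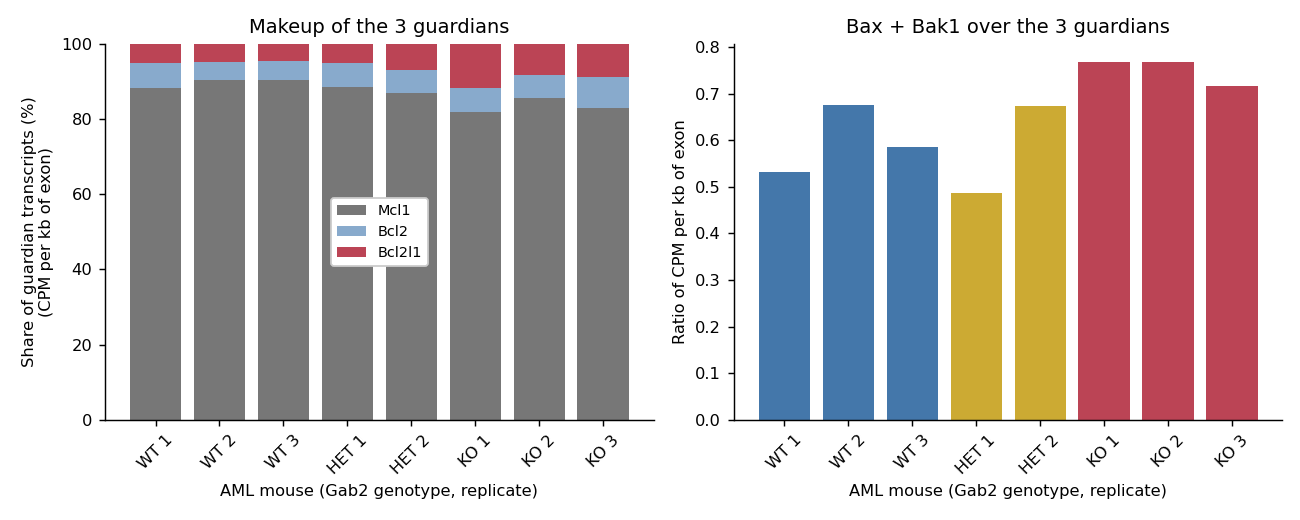
Left, share of guardian transcripts in percent for each mouse, from CPM per kilobase of exon, with Mcl1 in grey, Bcl2 in blue and Bcl2l1 in red. Right, ratio of Bax plus Bak1 to the 3 guardians on the same scale (blue AML WT, yellow AML HET, red AML KO). The Bcl2l1 part is 4.53% to 5.12% in AML WT and 8.28% to 11.7% in AML KO mice, and the ratio is 0.532 to 0.675 and 0.716 to 0.768.

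The effectors, which form the pores, did not pass in any comparison. Bax, on chromosome 7 at 51.6 Mb from Gab2, was at 57.2, 90.2 and 93.2 CPM in AML WT, 70.2 and 84.1 in AML HET and 105, 83.0 and 84.8 CPM in AML KO mice. AML WT replicate 1 stood lowest and AML KO replicate 1 highest. The log2 fold change was 0.18 (95% interval −0.25 to 0.61, adjusted p = 0.616, edgeR), and it was −0.02 without AML WT replicate 1. Bax shares 12.2% of its exon bases with Gm45808 on the same strand, a gene that is not in the count table. Bak1, on chromosome 17, was at 71.5, 103 and 85.1 CPM in AML WT, 82.1 and 91.0 in AML HET and 98.5, 109 and 98.3 CPM in AML KO mice, with 1 AML WT mouse inside the AML KO range. Its log2 fold change was 0.24 (95% interval −0.09 to 0.56, adjusted p = 0.388, edgeR). Of the exon bases of Bak1, 18.2% are shared with Ggnbp1 on the other strand, and the strand setting of the counting is not given.

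Pmaip1 (ENSMUSG00000024521), on chromosome 18 from 66458533 to 66465565, encodes Noxa, which binds Mcl1 and marks it for degradation and is a target of p53. It was at 24.5, 27.6 and 34.1 CPM in AML WT, 26.4 and 16.4 in AML HET and 15.8, 13.4 and 14.7 CPM in AML KO mice. Each AML KO mouse lay below the 5 others, and AML HET replicate 1 lay within the AML WT range. Means were 28.7 ± 4.91 (SD, n = 3), 21.4 ± 7.02 (SD, n = 2) and 14.7 ± 1.19 CPM (SD, n = 3). Against AML WT, this was −0.97 ± 0.20 on the log2 scale (± standard error), with an adjusted p of 0.0427 in edgeR. In the 8 fits without 1 mouse it lay between −1.08 and −0.83, with an adjusted p above 0.05 in 5 of them, namely without AML WT replicates 2 or 3 or any 1 AML KO mouse (0.156 without AML KO replicate 3). It was 0.0502 with limma-voom and 0.0501 with upper-quartile scaling. Per kilobase of exon, the level of Mcl1 was 11.7 to 13.3 times that of Pmaip1 in AML WT, 14.8 and 19.5 times in AML HET and 19.8 to 22.3 times in AML KO mice.

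The other BH3-only genes overlapped between AML KO and AML WT mice, and none passed. Bcl2l11 encodes Bim, which is induced when cytokines are withdrawn. It was at 46.8, 38.9 and 36.9 CPM in AML WT, 42.1 and 37.7 in AML HET and 30.3, 39.5 and 34.9 CPM in AML KO mice, a log2 fold change of −0.23 (95% interval −0.56 to 0.10, adjusted p = 0.402, edgeR). Bbc3 encodes Puma, like Noxa a target of p53, and lies 80.8 Mb from Gab2. It was the member with the fewest CPM in AML WT, at 11.5, 17.7 and 13.9, against 17.1 and 15.3 in AML HET and 13.8, 18.9 and 14.7 in AML KO mice. Its log2 fold change of 0.14 (95% interval −0.31 to 0.58, adjusted p = 0.710, edgeR) was −0.01 without AML WT replicate 1. The value was also −0.01 without AML KO replicate 2, so the sign of Bbc3 is not settled. The difference between Bbc3 and Pmaip1 was not tested.

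Bid links death receptors to mitochondria once caspase-8 has cut it. It ranged from 111 to 136 CPM in AML WT, from 128 to 132 in AML HET and from 129 to 147 in AML KO mice, with a log2 fold change of 0.17 (adjusted p = 0.447, edgeR). Bad, whose protein is kept inactive by phosphorylation downstream of Akt, ranged from 28.5 to 41.4, from 28.3 to 39.5 and from 40.4 to 49.0 CPM. Its log2 fold change was 0.31 (95% interval −0.10 to 0.71, adjusted p = 0.369, edgeR), and the highest AML WT mouse lay just inside the AML KO range. Bid shares 17.7% of its exon bases with Bcl2l13 and Bad 20.5% with Gpr137, each on the other strand.

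**Figure D3:**
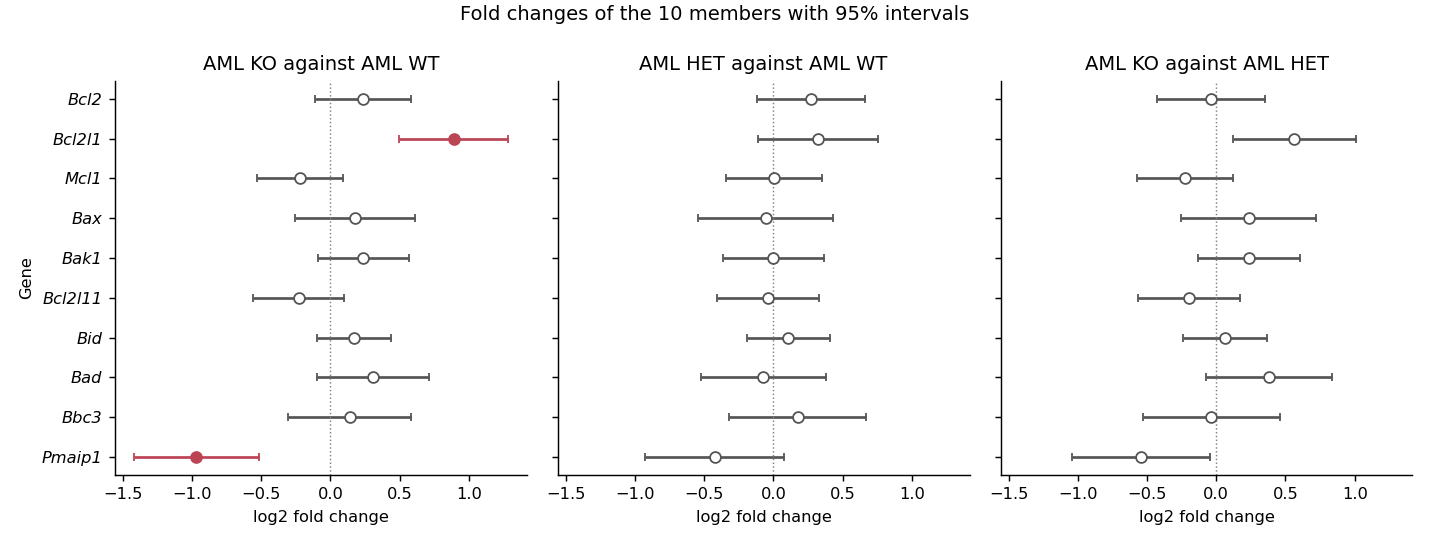
Log2 fold change (x axis) of the 10 members (y axis) in the 3 comparisons, with 95% intervals from the edgeR fit as horizontal bars. Filled red points have an adjusted p under 0.05, which are Bcl2l1 at 0.89 and Pmaip1 at −0.97 between AML KO and AML WT, and none of the open points passed.

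With 1 functional Gab2 allele left, no member passed. Between AML HET and AML WT BM, 0 of 10 had an adjusted or an unadjusted p under 0.05 with edgeR, DESeq2 or limma-voom, where 0.0225% of all genes passed the adjusted and 2.47% the unadjusted threshold with edgeR. The log2 fold change of Bcl2l1 was 0.32 (95% interval −0.11 to 0.76) and that of Pmaip1 −0.42 (95% interval −0.93 to 0.08). Bcl2 and Bcl2l1 were higher in both AML HET mice than in each AML WT mouse, 2 of 10 members against 18.1% of all genes without overlap. Between AML KO and AML HET, 0 members passed with any of these tools (0.0% of all genes with edgeR). Unadjusted p were 0.0175 for Bcl2l1, with a log2 fold change of 0.56, and 0.0348 for Pmaip1, with −0.55, and 5.86% of all genes were under 0.05. Bcl2l1, Bak1 and Bad lay above and Mcl1 and Pmaip1 below the AML HET mice without overlap, 5 of 10 members against 24.2% of all genes. The AML HET mean lay between the others for Bcl2l1, Bcl2l11, Bid and Pmaip1, 4 of 10 members against 53.3% of all genes. The AML WT and the AML HET mice each enter 2 of these 3 comparisons.

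Per kilobase of exon, Mcl1 stood first in each group, apart from all others, at 130 ± 18.4 CPM per kilobase for AML WT, 130 ± 18.1 for AML HET and 111 ± 2.81 for AML KO (SD over 3, 2 and 3 mice). Bax followed in each group, then Bak1 and Bid, whose ranges overlapped in all 3 groups, and then Bad. The order of the remaining members differed between groups. Pmaip1 was sixth in AML WT (10.5 ± 1.80), eighth in AML HET (7.83 ± 2.57) and ninth in AML KO BM (5.36 ± 0.434). Bcl2l1 was eighth in AML WT (6.95 ± 0.522), where its range overlapped with those of its neighbours Bcl2 and Bbc3, seventh in AML HET (8.71 ± 1.03) and sixth in AML KO BM (12.9 ± 3.05), where it overlapped with Bad and Bcl2. Bcl2l11 was last in every group. The ratio of both effectors to the 3 guardians was 0.532, 0.675 and 0.586 in AML WT, 0.487 and 0.674 in AML HET and 0.767, 0.768 and 0.716 in AML KO mice. AML KO and AML WT did not overlap in this ratio, as was the case for 22.1% of all single genes. The ratio was not tested. RNA ratios do not give the balance of the proteins.

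Bcl2l1 was set beside lineage markers, since erythroid cells and platelets depend on it. In AML KO BM, 21 of 24 erythroid, 19 of 23 megakaryocyte and platelet, and 11 of 24 mature neutrophil genes rose past an adjusted p of 0.05 in the edgeR test, and none fell. The median log2 fold changes were 3.56, 2.43 and 1.30. Examples were Alas2, an enzyme of heme synthesis in erythroid cells, from 4.68 ± 0.750 to 37.3 ± 18.1 CPM, Pf4, a platelet chemokine, from 3.03 ± 0.827 to 48.2 ± 18.7 CPM, and Ngp, a neutrophil granule gene, from 500 ± 277 to 2385 ± 398 CPM (SD, n = 3 each). The rise of Bcl2l1 by 0.89 was smaller than that of the typical marker. As mean log2 CPM of the erythroid list, AML WT mice had 1.56, 2.12 and 2.27, AML HET mice 3.26 and 5.05, and AML KO mice 5.86, 4.40 and 4.75. In each of the 3 groups, the mouse with the most erythroid RNA had the most Bcl2l1. The same held in 3 groups for the neutrophil and in 2 for the megakaryocyte and platelet list, and Bax, too, was highest in the mouse with the most erythroid RNA in 3 groups, so this order sets apart neither the erythroid list nor Bcl2l1. Pmaip1 was highest in the mouse with the most erythroid RNA in 2 groups, AML WT and AML KO, although it was lower in AML KO. The AML WT mice lay apart from all others on the erythroid list and the 3 genotypes lay apart from each other on the platelet list as mean log2 CPM, though AML WT and AML HET overlapped in its summed CPM, so that no relation over all mice was tested. Markers of hematopoietic stem and progenitor cells (HSPC) had 3 of 18 genes higher and a median of 0.54, and 0 of 13 monocyte, 0 of 12 B cell and 0 of 14 T and NK cell genes passed in the edgeR test (4 monocyte genes and 1 B cell gene lower and 3 T and NK cell genes higher at an unadjusted p under 0.05, against 17.7% of all genes). All 13 monocyte genes had values below 0, with a median of −0.27. The part of these cell types in the levels of Bcl2l1 and Pmaip1 was not tested.

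**Figure D4:**
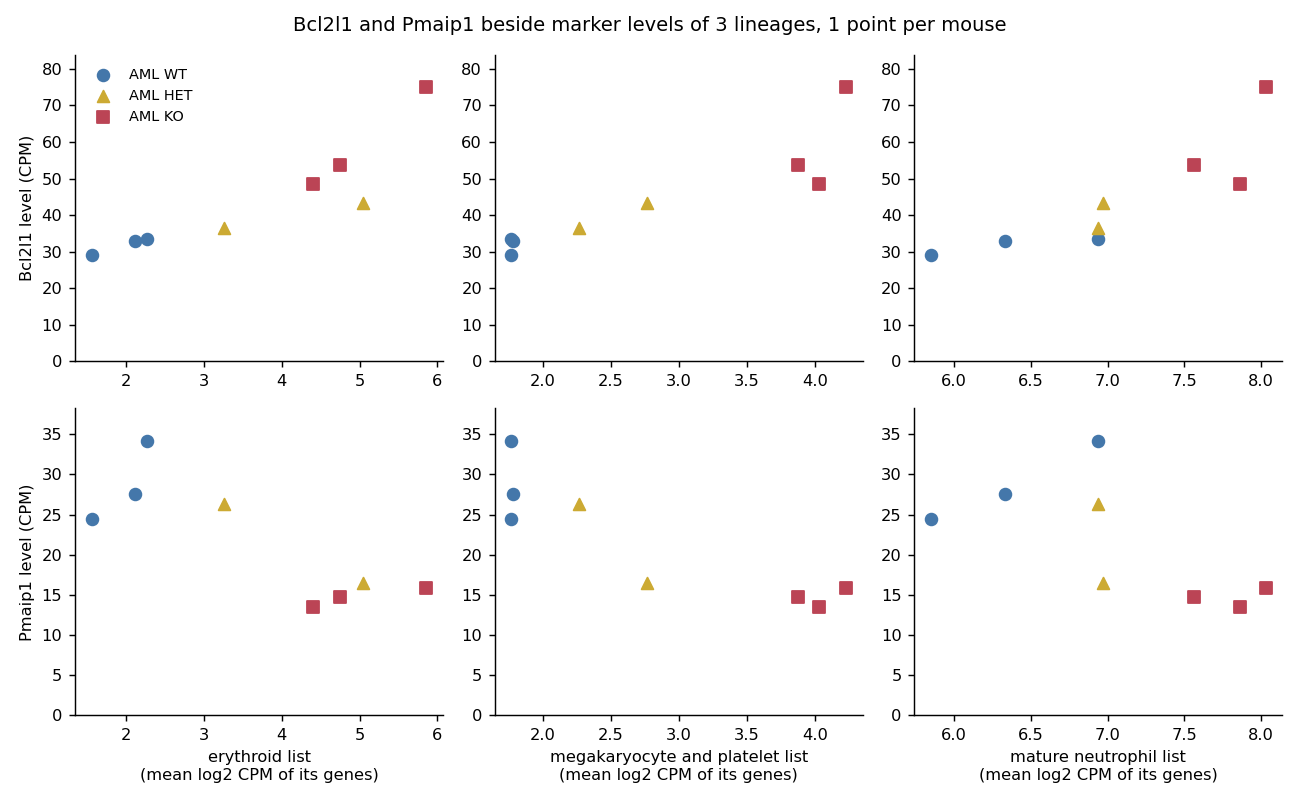
Level of Bcl2l1 (top) and Pmaip1 (bottom) in CPM against the mean log2 CPM of the erythroid, the megakaryocyte and platelet, and the mature neutrophil lists, with 1 point per mouse (circles AML WT, triangles AML HET, squares AML KO). AML KO replicate 1, with the highest erythroid mean of 5.86, has the highest Bcl2l1 level of 74.9 CPM, and the 3 genotypes lie apart on the platelet list as mean log2 CPM.

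The genes most like Bcl2l1 in their pattern were ranked by Pearson correlation of log2 CPM over the 8 mice, as a description. These mice span 3 genotypes, so that a difference between genotypes enters each correlation. The 10 closest were Rgcc, Krt18, Isca1, Ptp4a3, Rbpms2, Tmem216, Dnajb2, Clec1b, Stard10 and Ccno, from 0.99 to 0.978. Isca1 acts in the assembly of iron-sulfur clusters, and Clec1b encodes the platelet receptor Clec-2. Of these 10, only Clec1b (0.981) is on a lineage list used here, the megakaryocyte and platelet list. Rgcc was at 19.3, 21.8 and 22.7 CPM in AML WT, 24.1 and 28.5 in AML HET and 47.3, 34.8 and 33.3 CPM in AML KO mice. Its order of groups is that of Bcl2l1, by whose pattern it was chosen. A correlation above 0.9 with Bcl2l1 was seen for 16 of 24 erythroid, 13 of 23 megakaryocyte and platelet and 4 of 24 mature neutrophil genes, against 3.44% of all genes. Bcl2l1 and most erythroid and platelet genes were higher in AML KO, so that the difference between genotypes enters these counts. No relation to these lists was tested. For Pmaip1 no gene of these 3 lists was above 0.9, against 0.323% of all genes, and the medians were −0.83, −0.87 and −0.63. Pmaip1 was lower and most erythroid and platelet genes were higher in AML KO, so that this cut gives no contrast to Bcl2l1. The genes closest to Pmaip1 were Strip2, Cd209c and Igsf9 (0.978 to 0.977), with log2 fold changes of −1.25, −1.66 and −1.57 in AML KO. Their shared sign follows from their choice by correlation with Pmaip1. Bcl2l11 was closest to Spty2d1, Smcr8 and Lin54 (0.986 to 0.981) and Bax to Get4, Atp5g1 and Psmc4 (0.979 to 0.976), the latter a subunit of the proteasome.

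Of 16 further Bcl2 family genes, 13 were in the table. Between AML KO and AML WT none passed with edgeR or limma-voom, and 3 of 13 had an unadjusted p under 0.05 with edgeR, where 17.7% of all genes did. With DESeq2, which called 730 of all 13305 genes, 2 passed, namely Bik and Bcl2a1d. Their median log2 fold change was −0.21, with 5 above and 8 below 0. Bik, a BH3-only gene of the endoplasmic reticulum, had 9, 12 and 13 counts in AML WT, 16 and 22 in AML HET and 45, 25 and 36 counts in AML KO mice. The groups were ordered as for Bcl2l1, but the log2 fold change of 1.79 (standard error 0.39) had an adjusted p of 0.0525 with edgeR. The guardians of the A1 group are near-identical copies, so their reads may be split between them. Bcl2a1d was at 6.15, 8.60 and 15.7 CPM in AML WT, 8.03 and 4.11 in AML HET and 4.22, 4.33 and 3.21 CPM in AML KO mice (log2 fold change −1.37, adjusted p = 0.120, edgeR), and Bcl2a1a and Bcl2a1b had −0.93 and −0.51. Bcl2l2, the guardian Bcl-w, had −0.29 (adjusted p = 0.319, edgeR). Bnip3l (Nix), by which red cell precursors clear their mitochondria, had 0.02 (95% interval −0.26 to 0.29, adjusted p = 0.950, edgeR) with means of 152 ± 15.8 CPM for AML WT and 153 ± 8.93 CPM for AML KO (SD, n = 3 each). The other 7, Bok, Bmf, Bcl2l12, Bcl2l13, Bcl2l14, Bnip3 and Bnip1, lay between −0.43 and 0.38.

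The rest of the pathway was read from 5 lists, again between AML KO and AML WT BM. Counts at an unadjusted p under 0.05 are to be read against the 17.7% of all genes that reached it with edgeR. All 19 genes of the caspase and apoptosome list were in the table, and 0 passed with edgeR, DESeq2 or limma-voom, with 4, 5 and 5 at an unadjusted p under 0.05. Their median was −0.18, with 13 below 0, and among the farthest were Birc6, a giant inhibitor of apoptosis, with −0.74 (adjusted p = 0.211, edgeR) and Xiap, an inhibitor of caspases, with −0.49 (adjusted p = 0.230). Of 9 death receptor genes 0 passed with any of these tools and 1 had an unadjusted p under 0.05, Ripk1 (−0.65, adjusted p = 0.272, edgeR), followed by Tradd (0.31) and Fadd (0.28), and the median was 0.06. Of 18 p53 targets 0 passed with any of these tools and 3 had an unadjusted p under 0.05, Plk2 (−0.98), Zmat3 (−0.59) and Ccng1 (−0.36), with a median of −0.03. The classic targets Cdkn1a, which stops the cell cycle, and Mdm2, which feeds back on p53, had −0.24 and 0.09. For 20 genes that control turnover or lie upstream, the median was 0.00 and 6 had an unadjusted p under 0.05. With edgeR and limma-voom 0 passed, and with DESeq2 only Pim2 did, a survival kinase induced by Stat5 with a log2 fold change of 0.82 (adjusted p = 0.119, edgeR). Usp9x, which removes ubiquitin from Mcl1, had −0.995 (adjusted p = 0.262, edgeR) and Huwe1, which adds it, −0.65 (adjusted p = 0.192). Among 9 partners of the outer membrane channel 0 passed with any of these tools and 1 had an unadjusted p under 0.05 with edgeR, Bag1 with 0.38, next to Tmbim6 (0.25) and Bag3 (0.20), and the median was 0.10.

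**Figure D5:**
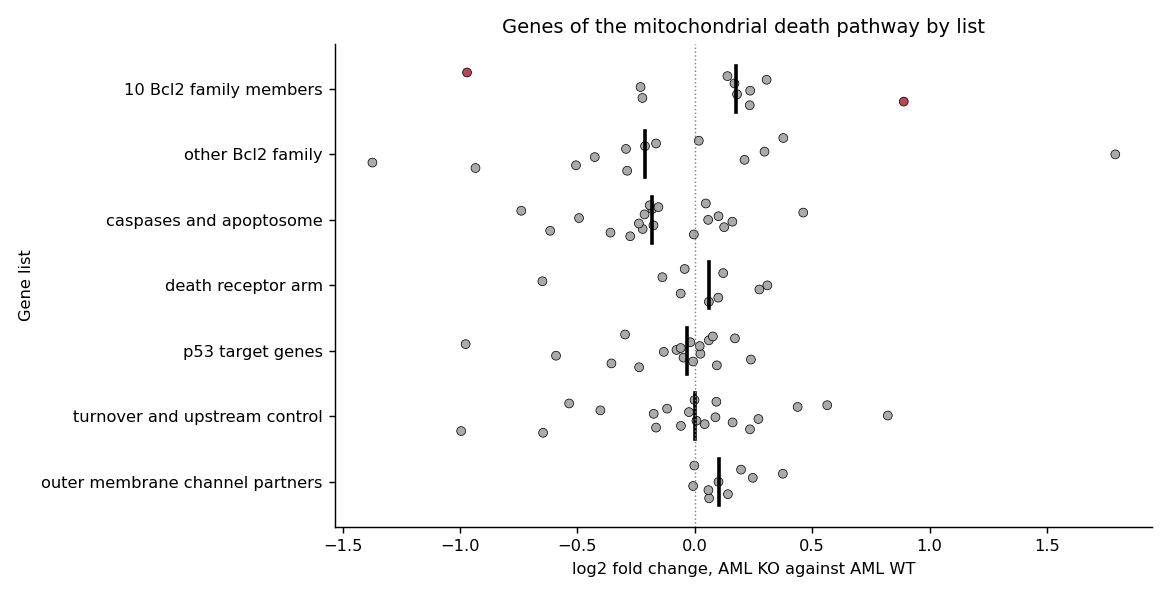
Log2 fold change of AML KO against AML WT (x axis) for every measured gene in 7 lists (y axis), with 1 point per gene, red where the adjusted p is under 0.05, and the median of each list as a black bar. The red points are Pmaip1 at −0.97 and Bcl2l1 at 0.89, and the farthest grey point is Bik at 1.79.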

How the data were processed

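Reads of whole BM from 8 mice were trimmed with Trimmomatic 0.36 and aligned with STAR 2.5.2b to mm10 according to the submitters' processing notes. The authors deposited raw counts per Ensembl gene, 1 column per mouse. The counting program and its strand setting are not given in the sources used here, and the lowest sum of a gene over the 8 mice is 106 counts. Of 13305 identifiers, 13266 were found in GENCODE M21 (GRCm38, the same build), which gave symbols, positions and exon lengths.

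Counts were fitted in R 4.3.3 with edgeR 4.0.16: TMM scaling, robust quasi-likelihood fit, all 8 mice, genotype as the only term, and Benjamini-Hochberg adjustment over all genes. Intervals and standard errors come from this fit, and log2 CPM uses a prior count of 2. On simulated counts of the AML KO against AML WT comparison over 13305 genes, the fit found 68 of 100 genes changed 2-fold and 99 of 100 changed 4-fold, with 11 unchanged genes called. The changed genes were drawn from those with a mean above 100 counts, so these shares do not cover genes with fewer counts. DESeq2 1.42.0, limma-voom (limma 3.58.1), other scalings, filters and sample choices were alternatives. Counts of 0 would allow at most 0.107 CPM in a library, for counting error only. No replicate pair agreed within sampling noise. Nothing says that mice of a group come from separate litters, and p-values measure the spread between mice only. Tables and figures used Python 3.11.15 with pandas 2.3.3 and matplotlib 3.10.9.

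The members and gene lists were chosen with earlier results of these data known. Named genes were all members, every other Bcl2 family gene, the 3 genes with the largest change in each pathway list without a call, a few fixed lineage markers and the genes with the most similar pattern (10 for Bcl2l1, 3 for each other member), not all of which are reported here. Cdkn1a and Mdm2 were named outside this rule, after their values were seen.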

Additional observations from a re-analysis of the deposited data

How the results depend on the processing

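The fold changes of Bcl2l1 and Pmaip1 between AML KO and AML WT kept their direction in all 17 alternative fits, but their calls rest on adjusted p close to 0.05. Of the 2 members called, 1 remained with limma-voom, upper-quartile scaling and scaling without the lineage list genes (Bcl2l1 each time, where fewer genes are tested in the last) and with AML WT and AML KO mice alone (Pmaip1, at 0.0618 for Bcl2l1). The count was 0 with the replicate block and 0 to 1 in the fits without 1 mouse each. Whether replicate numbers pair the mice could not be settled. Between deviations from the group means, same-numbered AML WT and AML KO mice had correlations of −0.51, −0.11 and −0.13. They were 0.08 and 0.29 for AML WT and AML HET, and −0.14 and −0.04 for AML HET and AML KO. Not every mouse was closest to its own number. Deviations within a group sum to 0, so with so few mice they can neither show nor exclude a pairing. With the replicate block the adjusted p was 0.165 for Bcl2l1 and 0.131 for Pmaip1, and the count over all genes was 19 in place of 278. It was 730 with DESeq2, 200 without the lineage list genes and 40 to 370 without 1 mouse each. DESeq2 called 2 of the other Bcl2 family genes and 1 gene of turnover and upstream control, and without 1 mouse each these counts were 0 to 1. The filterByExpr function removed 0 genes, so that this fit equals the reported one.

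Members near 0 changed sign. Between AML HET and AML WT, Bak1 was at 0.014 with limma-voom, 0.019 with upper-quartile scaling and 0.001 without the lineage list genes or with at least 10 counts in every mouse, and without 1 mouse each ranges were −0.12 to 0.14 for Bak1, −0.14 to 0.14 for Mcl1, −0.247 to 0.074 for Bax, −0.119 to 0.075 for Bcl2l11 and −0.33 to 0.15 for Bad. Such ranges were −0.20 to 0.14 for Bcl2 and −0.192 to 0.056 for Bbc3 between AML KO and AML HET, and −0.024 to 0.3 for Bax and −0.012 to 0.319 for Bbc3 between AML KO and AML WT. Depth does not limit the members, which have at least 369 counts in each mouse, but it limits Bik with 9 counts in a mouse.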
